A study of Arabidopsis thaliana with 15 samples.

Results

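The 10 stomatal lineage regulators described here were taken by locus from the 32833 genes of the count table, and all 10 passed the filter on low counts that left 20721 genes for testing. They are the transcription factors SPCH, MUTE, FAMA and ICE1, the secreted peptides EPF1 and EPF2, the receptors TMM and ER, the polarity protein BASL and the protease SDD1. Their levels were compared among 1-week-old whole Arabidopsis seedlings of 5 genotypes with 3 libraries each: the single mutants gyf1 and gyf2, the double mutants gyf1 gyf2-1 and gyf1 gyf2-2, and wild type (WT, Col-0). Seedlings of every genotype grew untreated on medium with 1% sucrose, and total RNA came from about 100 mg of tissue. The labels give neither the mutated loci nor the kind of mutation, so the mutations were not checked in these libraries. Whether gyf2-1 and gyf2-2 are alleles or lines, and which of them is present in the gyf2 single mutant, is not labelled either, and this bears on every comparison of the double mutants with gyf2. The study design mentions duplicates, but each genotype has 3 libraries and all were used. Since the labels do not describe the replicates as separate cultures, p-values cover the spread between these samples alone, which may be technical.

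Stomata arise in the leaf and cotyledon epidermis through a series of divisions and fate steps. The related bHLH transcription factors SPCH, MUTE and FAMA act one after another, each with the bHLH partner ICE1 (also called SCREAM): SPCH starts the lineage, MUTE ends the self-renewing divisions and FAMA sets guard cell fate. The secreted peptides EPF2 and EPF1 are made by lineage cells and signal through receptor kinases of the ERECTA family, among them ER, and the receptor-like protein TMM to a MAP kinase cascade that limits SPCH, so that stomata are spaced apart.

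The libraries held 16567801 to 24681140 counts, lowest in gyf1 gyf2-1 with 16567801 to 18787528, against 18913912 to 21307997 in WT. The regulators had 13 to 1470 counts per library, so the low ones, EPF1 and MUTE, rest on few reads. On the second principal component 4 libraries stood apart from their own genotype: gyf2 replicate 3 (−17.88), gyf1 gyf2-1 replicate 1 (8.09, the other 2 at −12.56 and −17.84), gyf1 gyf2-2 replicate 2 (23.13, the others at 3.14 and 2.97) and WT replicate 1 (28.44, the others at 0.68 and 0.72). Calls against WT that change when these 4 are left out together, a choice made after seeing the data, are given with and without them. Leaf, epidermal, guard cell, vascular and root marker genes had counts in every library. Because the RNA is from whole seedlings, fewer lineage cells and less RNA per cell cannot be told apart. A gene passed the test where the edgeR quasi-likelihood p-value, adjusted by Benjamini-Hochberg over the 20721 genes, was below 0.05. All comparisons with WT use the same 3 WT libraries.

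The sequences just upstream of 5 regulators are shown because these genes carry the main contrast of the results: SPCH, TMM and EPF2 were lower in both double mutants whichever single library was left out, and ICE1 and ER did not pass in either. Each is the 250 bases upstream of the 5′ end of the gene in the deposited table. For a gene on the minus strand, the 5′ end is the end coordinate. The bases were read from the RefSeq genome (build TAIR10.1), 5′ to 3′ on the strand of the gene. On this build the start and end of all 10 genes were the same as in the table. E-boxes, the CANNTG motif that bHLH factors such as these can bind, are in capitals. The windows lie at chr5:21589256-21589505 for SPCH (minus strand), chr1:30129650-30129899 for TMM (minus), chr1:12472618-12472867 for EPF2 (plus), chr3:9835280-9835529 for ICE1 (minus) and chr2:11214663-11214912 for ER (minus). No other gene of the table reaches into them.
SPCH: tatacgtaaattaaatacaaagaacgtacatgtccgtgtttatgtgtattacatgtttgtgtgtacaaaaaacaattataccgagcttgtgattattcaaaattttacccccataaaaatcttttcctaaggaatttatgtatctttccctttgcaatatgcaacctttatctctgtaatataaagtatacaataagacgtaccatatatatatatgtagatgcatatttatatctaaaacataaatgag
TMM: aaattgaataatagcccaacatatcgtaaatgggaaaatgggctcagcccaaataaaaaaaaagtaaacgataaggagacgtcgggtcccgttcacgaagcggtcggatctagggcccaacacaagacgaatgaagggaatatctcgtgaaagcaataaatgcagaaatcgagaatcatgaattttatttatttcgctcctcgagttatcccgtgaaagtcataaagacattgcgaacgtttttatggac
EPF2: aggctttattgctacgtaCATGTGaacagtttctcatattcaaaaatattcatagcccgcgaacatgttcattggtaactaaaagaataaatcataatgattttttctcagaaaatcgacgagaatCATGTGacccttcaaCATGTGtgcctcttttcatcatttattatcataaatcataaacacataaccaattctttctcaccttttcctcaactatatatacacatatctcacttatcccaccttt
ICE1: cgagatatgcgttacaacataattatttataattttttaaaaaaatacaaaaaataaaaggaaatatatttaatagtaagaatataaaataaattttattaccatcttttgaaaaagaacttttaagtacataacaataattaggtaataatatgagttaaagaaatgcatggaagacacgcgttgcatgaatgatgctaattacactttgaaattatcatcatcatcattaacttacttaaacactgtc
ER: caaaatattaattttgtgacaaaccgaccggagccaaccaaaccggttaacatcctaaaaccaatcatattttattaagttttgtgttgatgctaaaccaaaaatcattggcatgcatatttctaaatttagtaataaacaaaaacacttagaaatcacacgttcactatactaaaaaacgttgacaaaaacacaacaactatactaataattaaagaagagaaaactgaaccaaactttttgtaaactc
The EPF2 window held 3 E-boxes, all with the letters catgtg, and the other 4 windows held none. Of the other regulators, EPF1 and FAMA had 2 each and MUTE, BASL and SDD1 had 1 each. E-boxes were thus in the windows of 6 of the 10 regulators, against 55.3% of 27419 windows of the same length upstream of protein-coding genes, with a mean of 0.83 per window. The G-box CACGTG, which is itself an E-box, was in 0 of the 10, against 6.48% of all windows. Both motifs read the same on either strand under this search, and a match is a match of letters only.

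Both double mutants had lower levels of most of these genes than WT, while 0 passed in gyf1 and 1 in gyf2. In gyf1 gyf2-1, 7 of the 10 passed the test and all 7 fell (11.7% of all genes tested fell and 14.2% rose). In gyf1 gyf2-2, 7 of 10 also fell (background 12.6% lower and 15.1% higher). SPCH, MUTE, TMM, EPF2, BASL and SDD1 passed in each line, EPF1 passed in gyf1 gyf2-1 alone and FAMA in gyf1 gyf2-2 alone, while ICE1 and ER passed in neither. In gyf1 0.521% of all genes passed, and in gyf2 the single call was EPF2, which fell (0.516% of all genes fell). Over the 10, gyf1 had a median log2 fold change of −0.13, gyf2 of −0.19, gyf1 gyf2-1 of −0.50 and gyf1 gyf2-2 of −0.63, and that of all genes was between −0.01 and 0.00 in each of these comparisons. With upper-quartile scaling 9 of the 10 fell in each line, and the share of higher genes among all called was 38.3% instead of 54.8% in gyf1 gyf2-1 and 40.6% instead of 54.6% in gyf1 gyf2-2. Without the 4 libraries that stood apart, 0 regulators passed in gyf1 and in gyf2, while 4 passed in gyf1 gyf2-1 and 6 in gyf1 gyf2-2. With single libraries left out, the count was 4 to 6 in gyf1 gyf2-1 (4 without its replicate 3) and 4 or 5 in gyf1 gyf2-2 (4 without WT replicate 2 or its own replicate 3).

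Set against the WT mean of each gene (CPM, counts scaled to library size), the median over the 10 regulators was 85.7% to 98.2% in the gyf1 libraries and 83.6% to 92.2% in the gyf2 libraries. It was 67.5% to 70.6% in gyf1 gyf2-1 and 65.9% to 70.0% in gyf1 gyf2-2, against 96.9% to 103.7% in the WT libraries. All 6 double mutant libraries therefore lay below all 9 others by this measure. All 3 libraries lay below all 3 WT libraries for 1 regulator in gyf1 (7.42% of all genes did so) and for 5 in gyf2 (8.95%). The count was 8 in gyf1 gyf2-1 (18.7%) and 9 in gyf1 gyf2-2 (18.9%), where ER alone overlapped WT.

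**Figure D1:**
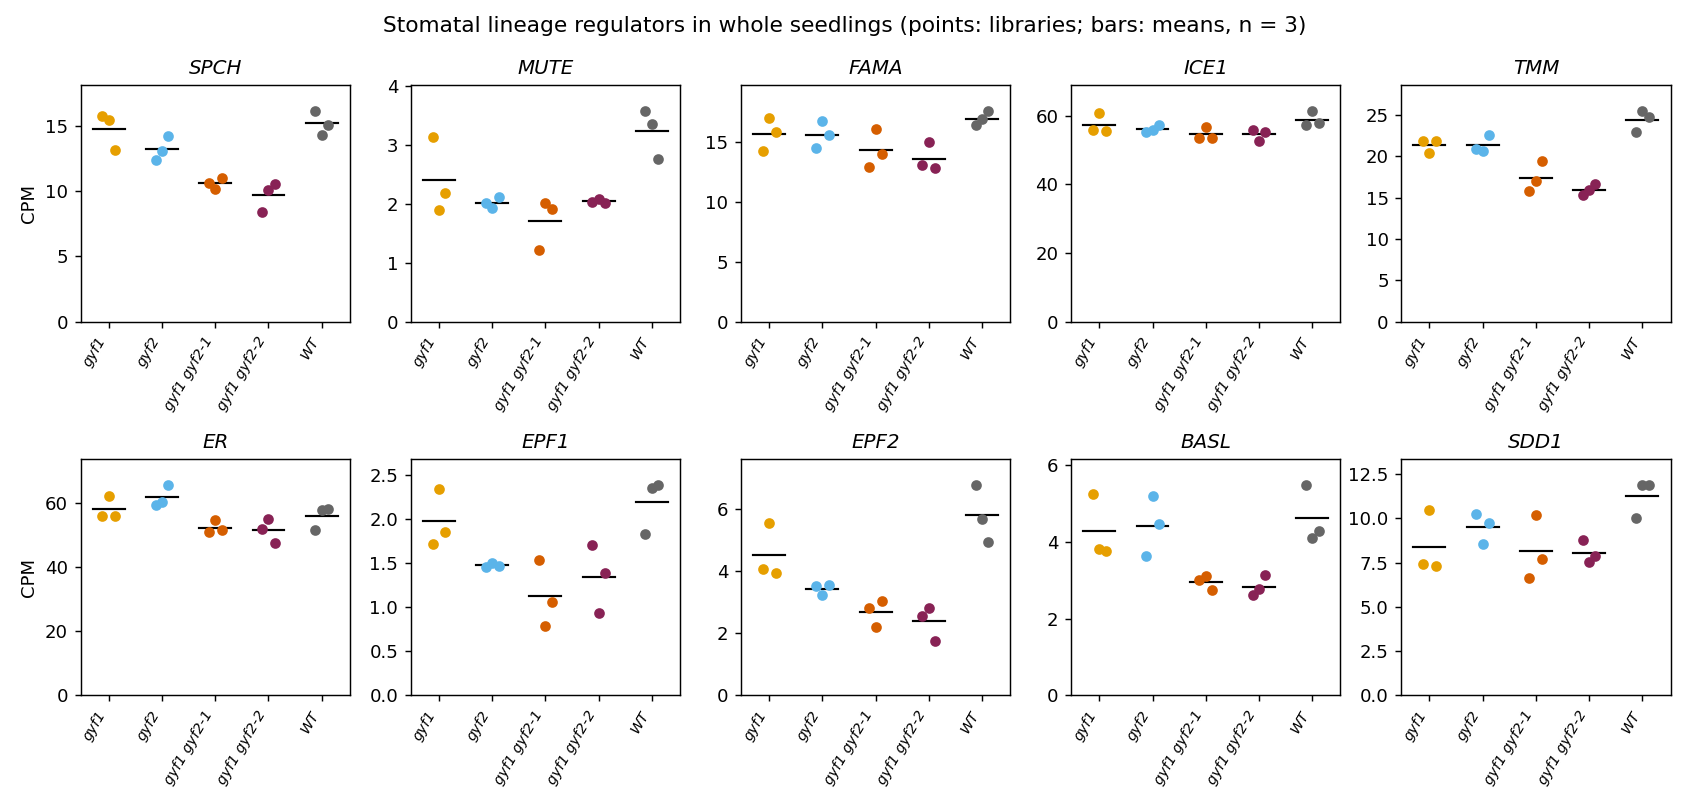
CPM of each of the 10 regulators in whole seedlings, 1 panel per gene with its own axis from 0; points are the 15 libraries and bars the means of 3. In both double mutants every regulator except SDD1 and ER lies below every WT library, and SDD1 does so in gyf1 gyf2-2 alone. ICE1 differs little between genotypes. ER passed in no mutant against WT, and was lower in the double mutants than in gyf2.

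SPCH (AT5G53210, chromosome 5, 21586219 to 21589255, minus strand, TAIR10), the factor that starts the lineage, had 15.8, 15.4 and 13.1 CPM in gyf1 and 12.4, 13.1 and 14.2 CPM in gyf2. It had 10.6, 10.2 and 11.0 CPM in gyf1 gyf2-1 and 8.43, 10.1 and 10.5 CPM in gyf1 gyf2-2, against 16.1, 14.3 and 15.1 CPM in WT. All double mutant libraries were below every library of the single mutants and of WT, the gyf2 libraries fell just short of the lowest WT library, and gyf1 overlapped WT. SPCH fell by 0.52 on the log2 scale in gyf1 gyf2-1 (SE 0.11, edgeR adjusted p = 0.00110), which is 30.2%, and by 0.65 in gyf1 gyf2-2 (SE 0.11, adjusted p = 6.86e-05), which is 36.1%. The log2 fold change was −0.04 (95% interval −0.26 to 0.19) in gyf1 and −0.20 (−0.42 to 0.03) in gyf2, and neither passed. SPCH stayed past the threshold in both double mutants with any single library left out and with the 4 libraries that stood apart left out.

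MUTE (AT3G06120, chromosome 3, 1846442 to 1848259, plus strand), which ends the stem-cell-like divisions, had 3.13, 1.88 and 2.18 CPM in gyf1 and 2.02, 1.92 and 2.11 CPM in gyf2. It had 1.21, 2.01 and 1.91 CPM in gyf1 gyf2-1 and 2.03, 2.08 and 2.01 CPM in gyf1 gyf2-2, against 3.57, 3.35 and 2.76 CPM in WT. The libraries of gyf2 and of both double mutants were below all WT libraries. Both lines overlapped gyf2, and the gyf1 gyf2-2 libraries lay just above those of gyf1 gyf2-1. MUTE fell by 0.92 on the log2 scale in gyf1 gyf2-1 (SE 0.25, edgeR adjusted p = 0.00721) and by 0.66 in gyf1 gyf2-2 (SE 0.24, adjusted p = 0.0413). In gyf2 the change was −0.68 (SE 0.24, adjusted p = 0.164), close in size to that of gyf1 gyf2-2. These are 22 to 76 counts per library. The call in gyf1 gyf2-2 was lost without WT replicate 1 or 2 or any 1 of its own 3 replicates (log2 −0.67 to −0.58, adjusted p 0.0702 to 0.130), and with no filter on low counts (−0.67, 0.0516). With the 4 libraries that stood apart left out, MUTE passed in neither line (−0.64, adjusted p = 0.138 in gyf1 gyf2-1 and −0.60, adjusted p = 0.156 in gyf1 gyf2-2).

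FAMA (AT3G24140, listed as FMA, chromosome 3, 8715118 to 8718211, minus strand), the guard cell fate factor, changed least of the 3 sequential bHLH genes in both double mutants. It had 14.3, 17.0 and 15.8 CPM in gyf1 and 14.5, 16.8 and 15.6 CPM in gyf2. It had 13.0, 16.1 and 14.0 CPM in gyf1 gyf2-1 and 13.1, 15.0 and 12.8 CPM in gyf1 gyf2-2, against 16.4, 16.9 and 17.6 CPM in WT. Every double mutant library was below the lowest WT library, by a small margin for gyf1 gyf2-1 replicate 2. FAMA fell by 0.32 in gyf1 gyf2-2 (SE 0.11, edgeR adjusted p = 0.0275), and in gyf1 gyf2-1 the change was −0.24 (SE 0.11, adjusted p = 0.0976). The call was lost without WT replicate 2 or 3 or gyf1 gyf2-2 replicate 1 or 3 (log2 −0.32 to −0.28, adjusted p 0.0589 to 0.105). With upper-quartile scaling FAMA also passed in gyf1 gyf2-1 (−0.31, adjusted p = 0.0341).

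ICE1 (AT3G26744, chromosome 3, 9832667 to 9835279, minus strand), the shared bHLH partner, which is also known as a regulator of the cold response, was nearly level. It had 55.9, 60.9 and 55.4 CPM in gyf1, 55.2, 55.8 and 57.3 CPM in gyf2, 53.5, 56.9 and 53.5 CPM in gyf1 gyf2-1 and 55.8, 52.7 and 55.1 CPM in gyf1 gyf2-2, against 57.2, 61.3 and 57.9 CPM in WT. The double mutant libraries lay just below the WT libraries without overlap. The log2 difference was −0.11 in each line (95% interval −0.24 to 0.03 in both, edgeR adjusted p = 0.246 in gyf1 gyf2-1 and 0.235 in gyf1 gyf2-2). With upper-quartile scaling it was −0.17 in each (adjusted p = 0.0452 in gyf1 gyf2-1 and 0.0457 in gyf1 gyf2-2).

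EPF2 (AT1G34245, chromosome 1, 12472868 to 12473974, plus strand), the peptide of early lineage cells that limits entry into the lineage, had the most negative fold change of the 10 in both double mutants. It had 4.06, 5.55 and 3.93 CPM in gyf1 and 3.51, 3.22 and 3.54 CPM in gyf2. It had 2.80, 2.19 and 3.03 CPM in gyf1 gyf2-1 and 2.56, 2.82 and 1.75 CPM in gyf1 gyf2-2, against 6.76, 5.66 and 4.94 CPM in WT. The double mutants, gyf2 and WT formed 3 levels that did not overlap, with both lines at the lowest level and gyf2 between them and WT. EPF2 fell by 1.11 in gyf1 gyf2-1 (SE 0.21, edgeR adjusted p = 0.000174) and by 1.28 in gyf1 gyf2-2 (SE 0.21, adjusted p = 2.13e-05), 53.7% and 58.9% lower. Both calls were kept with any single library left out and without the 4 that stood apart. In gyf2 it fell by 0.76 (SE 0.20, adjusted p = 0.0294), a call kept only without WT replicate 3. It was lost without WT replicate 1 (−0.63, adjusted p = 0.197), WT replicate 2 (−0.77, 0.0698), gyf2 replicate 1 (−0.77, 0.0926), gyf2 replicate 2 (−0.71, 0.122) or gyf2 replicate 3 (−0.78, 0.0752), and without the 4 libraries (−0.65, 0.198). In gyf1 the log2 difference was −0.36 (95% interval −0.75 to 0.03).

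EPF1 (AT2G20875, chromosome 2, 8982863 to 8983814, minus strand), the peptide of later lineage cells that orients spacing divisions, was the lowest of the 10 per length and had 13 to 47 counts per library. It had 1.72, 2.34 and 1.86 CPM in gyf1, 1.45, 1.51 and 1.47 CPM in gyf2, 1.54, 0.791 and 1.06 CPM in gyf1 gyf2-1 and 1.71, 0.939 and 1.39 CPM in gyf1 gyf2-2, against 1.83, 2.35 and 2.39 CPM in WT. The libraries of gyf2 and both lines were below all WT libraries, and the double mutants overlapped gyf2. EPF1 fell by 0.94 in gyf1 gyf2-1 (SE 0.30, edgeR adjusted p = 0.0204), and the change was −0.70 in gyf1 gyf2-2 (SE 0.29, adjusted p = 0.0699). The call in gyf1 gyf2-1 was lost without WT replicate 2 (−0.88, adjusted p = 0.0636), WT replicate 3 (−0.87, 0.0586), gyf1 gyf2-1 replicate 2 (−0.74, 0.118) or gyf1 gyf2-1 replicate 3 (−0.89, 0.0721). In gyf1 gyf2-2 it passed with upper-quartile scaling (−0.76, adjusted p = 0.0443) and on FPKM (−0.69, 0.0345).

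TMM (AT1G80080, chromosome 1, 30127819 to 30129649, minus strand), the receptor-like protein of the lineage, differed between single and double mutants in every library. It had 21.9, 20.4 and 21.8 CPM in gyf1 and 20.9, 20.7 and 22.6 CPM in gyf2. It had 15.8, 17.0 and 19.4 CPM in gyf1 gyf2-1 and 15.4, 15.9 and 16.6 CPM in gyf1 gyf2-2, against 22.9, 25.5 and 24.7 CPM in WT. No double mutant library reached a single mutant library, and no single mutant library reached WT. TMM fell by 0.49 in gyf1 gyf2-1 (SE 0.09, edgeR adjusted p = 0.000237) and by 0.61 in gyf1 gyf2-2 (SE 0.09, adjusted p = 8.49e-06), with both calls kept whichever library was left out. In both single mutants the difference was −0.19 (95% interval −0.37 to 0.00 in gyf1 and −0.37 to −0.01 in gyf2), and neither passed after adjustment.

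ER (AT2G26330, chromosome 2, 11208080 to 11214662, minus strand), the receptor kinase ERECTA, also acts in stem growth and organ shape outside the stomatal lineage. It had 56.0, 62.3 and 56.0 CPM in gyf1, 59.3, 60.4 and 65.6 CPM in gyf2, 50.8, 54.7 and 51.5 CPM in gyf1 gyf2-1 and 51.8, 55.1 and 47.7 CPM in gyf1 gyf2-2, against 51.6, 57.8 and 58.1 CPM in WT. Only the gyf2 libraries lay apart from WT, above it, as 9.07% of all genes did. The log2 difference from WT was 0.06 in gyf1 (95% interval −0.09 to 0.21), 0.15 in gyf2 (−0.00 to 0.30), −0.09 in gyf1 gyf2-1 (−0.25 to 0.06) and −0.11 in gyf1 gyf2-2 (−0.27 to 0.04), and none passed. Without the 4 libraries that stood apart, ER passed in gyf1 gyf2-2 (−0.22, edgeR adjusted p = 0.0299).

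BASL (AT5G60880, chromosome 5, 24488289 to 24489836, minus strand), which marks 1 side of the dividing lineage cell and makes the division asymmetric, was lower in the double mutants alone. It had 5.25, 3.82 and 3.77 CPM in gyf1, 3.63, 5.19 and 4.47 CPM in gyf2, 3.02, 3.10 and 2.75 CPM in gyf1 gyf2-1 and 2.61, 2.77 and 3.15 CPM in gyf1 gyf2-2, against 5.49, 4.10 and 4.30 CPM in WT. All 6 double mutant libraries were below all other libraries, and both single mutants overlapped WT. BASL fell by 0.65 in gyf1 gyf2-1 (SE 0.20, edgeR adjusted p = 0.0164) and by 0.71 in gyf1 gyf2-2 (SE 0.20, adjusted p = 0.00796). Both calls were lost without WT replicate 1, the highest WT library (−0.51, adjusted p = 0.111 in gyf1 gyf2-1 and −0.56, 0.0640 in gyf1 gyf2-2). The call in gyf1 gyf2-1 was also lost without its replicate 3 (−0.60, 0.0691), and both were lost without the 4 libraries (−0.52, 0.141 in gyf1 gyf2-1 and −0.54, 0.113 in gyf1 gyf2-2).

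SDD1 (AT1G04110, chromosome 1, 1061297 to 1063809, minus strand), a subtilisin-like protease that lowers stomatal density, had 7.41, 10.5 and 7.33 CPM in gyf1 and 10.2, 8.57 and 9.73 CPM in gyf2. It had 6.64, 10.2 and 7.73 CPM in gyf1 gyf2-1 and 8.80, 7.51 and 7.89 CPM in gyf1 gyf2-2, against 10.0, 11.9 and 11.9 CPM in WT. Only gyf1 gyf2-2 was below WT in all libraries, and gyf1 was as low as the double mutants in replicates 1 and 3. SDD1 fell by 0.46 in gyf1 gyf2-1 (SE 0.15, edgeR adjusted p = 0.0263) and by 0.48 in gyf1 gyf2-2 (SE 0.15, adjusted p = 0.0188). In gyf1 the difference was −0.42 (SE 0.15, adjusted p = 0.303). The call in gyf1 gyf2-1 was lost without WT replicate 2 or 3 (−0.42 each, adjusted p = 0.0841 and 0.0746), its replicate 1 (−0.33, 0.144) or its replicate 3 (−0.42, 0.0954), without the 4 libraries (−0.41, 0.0769) and on FPKM (−0.46, 0.0512). That in gyf1 gyf2-2 was lost without WT replicate 2 or 3 (−0.44 each, 0.0670 and 0.0579) or its replicate 2 or 3 (−0.43, 0.0672 and −0.47, 0.0569).

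**Figure D2:**
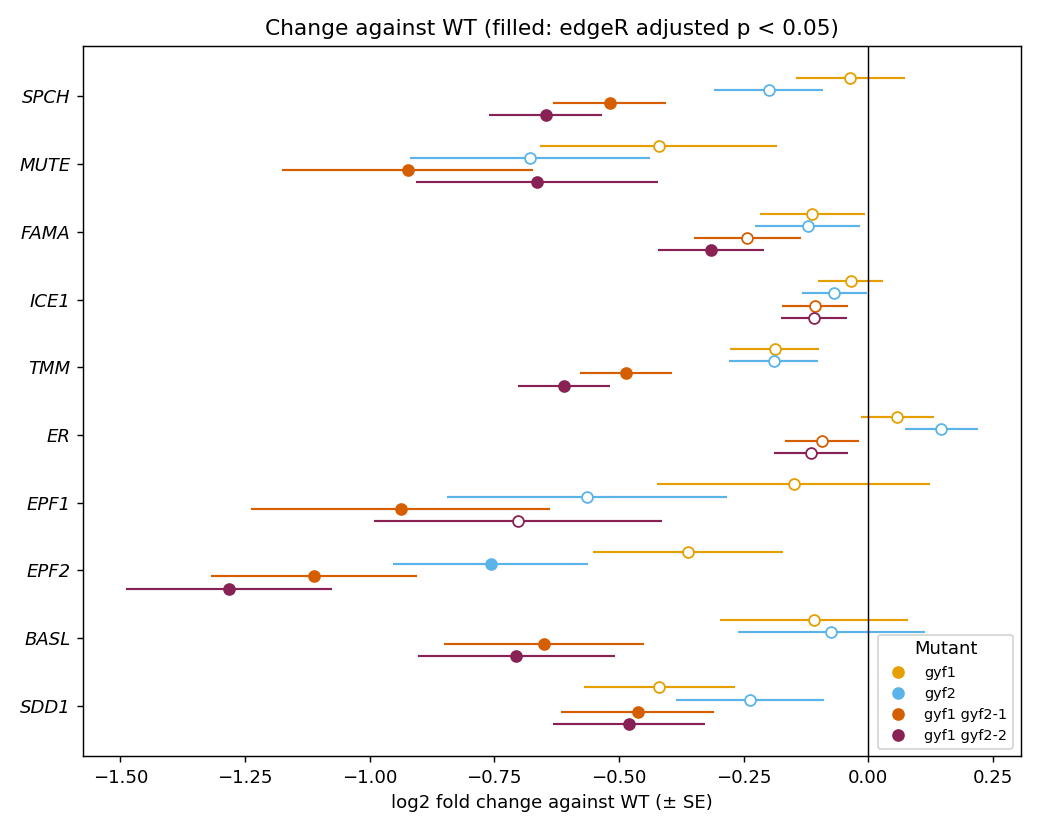
Log2 fold change against WT (x axis, ± SE) of the 10 regulators (y axis) in gyf1, gyf2, gyf1 gyf2-1 and gyf1 gyf2-2; filled points passed the edgeR test. The double mutants lie left of 0 for every gene, from −1.28 for EPF2 to −0.09 for ER.

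No regulator passed between the 2 double mutants. Between gyf1 gyf2-2 and gyf1 gyf2-1, edgeR called 0 of 10 (0.232% of all genes), with 0 at an unadjusted p below 0.05 and 0 by DESeq2 or limma-voom. The log2 differences ran from −0.17 for EPF2 (95% interval −0.64 to 0.29) to 0.26 for MUTE (−0.28 to 0.80). The narrowest interval was that of ICE1 (−0.14 to 0.13), and the widest was that of EPF1 (−0.41 to 0.88), so that moderate differences between the lines are not bounded for the low genes. In gyf1, edgeR called 0 of 10 against WT, with 2 at an unadjusted p below 0.05 (TMM and SDD1) and 0 by DESeq2 or limma-voom.

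SPCH, TMM and BASL were lower in the double mutants than in either single mutant. The mean of both lines against gyf1 was lower for SPCH, TMM, EPF1, EPF2 and BASL, 5 of the 10 (25.5% of all genes passed and 11.2% were lower). Against gyf2 it was lower for SPCH, TMM, ER and BASL, 4 of the 10 (21% passed and 8.86% were lower). SPCH was −0.55 against gyf1 (SE 0.10, edgeR adjusted p = 8.52e-05) and −0.38 against gyf2 (SE 0.10, adjusted p = 0.00495). TMM was −0.36 against each (SE 0.08, adjusted p = 0.00104 against gyf1 and 0.00140 against gyf2). The gap to the single mutants was thus close to equal for TMM, and larger to gyf1 than to gyf2 for SPCH in these estimates, a contrast that was not tested.

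BASL was −0.57 against gyf1 (SE 0.17, edgeR adjusted p = 0.0132) and −0.60 against gyf2 (SE 0.17, adjusted p = 0.0101). The first was lost without gyf1 replicate 1 (−0.39, adjusted p = 0.172) and the second without gyf2 replicate 2 (−0.48, 0.103). EPF2 was −0.84 against gyf1 (SE 0.18, adjusted p = 0.000702) and −0.44 against gyf2 (95% interval −0.81 to −0.07, adjusted p = 0.0870). Against gyf2, where EPF2 itself fell relative to WT, the double mutants did not pass although all their libraries were lower. EPF1 was −0.67 against gyf1 (SE 0.25, adjusted p = 0.0484). This call was lost with no filter on low counts (adjusted p = 0.0587) and in a fit to the groups compared only (0.0742). It was also lost when any replicate of gyf1, or replicate 2 or 3 of either double mutant, was left out (−0.76 to −0.53, adjusted p 0.0607 to 0.223). MUTE was −0.12 against gyf2 (95% interval −0.57 to 0.34), and SDD1 was −0.05 against gyf1 (−0.33 to 0.23).

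ER, which passed in no comparison with WT, was −0.25 in the double mutants against gyf2 (SE 0.06, edgeR adjusted p = 0.00464), where gyf2 was the highest genotype. It was −0.16 against gyf1 (95% interval −0.29 to −0.03, adjusted p = 0.0613), and passed there with upper-quartile scaling (−0.21, 0.0148), without the 4 libraries (−0.18, 0.0167) and without gyf1 gyf2-2 replicate 2 (−0.19, 0.0335). Non-additivity subtracts the summed log2 changes of gyf1 and gyf2 from the mean change of both double mutants. It was called for ER, at −0.31 (SE 0.10, adjusted p = 0.0498), and for no other regulator (7.2% of all genes passed and 2.35% in this direction). This call was lost in limma-voom (adjusted p = 0.0546), on FPKM (0.0922), without the 4 libraries (−0.23, 0.136) and, for 12 of the 15 libraries, when that library was left out (−0.34 to −0.25, adjusted p 0.0512 to 0.169). It was kept without WT replicate 2, gyf2 replicate 1 or gyf1 gyf2-2 replicate 2. For SPCH the value was −0.35 (95% interval −0.65 to −0.05, adjusted p = 0.167) and for BASL −0.49 (−1.01 to 0.02, adjusted p = 0.274). For EPF2 it was −0.08 (−0.62 to 0.46), and for MUTE 0.30 (−0.36 to 0.97).

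Some epidermal markers were lower in the double mutants than in the single mutants. Of the 7, ATML1, PDF2, FDH and CYP86A2 fell against gyf1 (−0.46 to −0.21, edgeR adjusted p 0.00196 to 0.0322) and ATML1, PDF2 and FDH against gyf2 (−0.23 to −0.21, 0.0109 to 0.0156). Of all genes, 11.2% were lower against gyf1 and 8.86% against gyf2. ATML1 and PDF2 are transcription factors of epidermal identity, and FDH is an enzyme of cuticle formation. The other 3 against gyf1 and the other 4 against gyf2 did not pass, among them PDF1 at −0.01 against gyf1 and −0.12 against gyf2. Non-additivity was called for ATML1 (−0.33, adjusted p = 0.0272) and PDF2 (−0.38, adjusted p = 0.0232), against 2.35% of all genes in this direction. Unlike most regulators, these markers were mostly above WT in the single mutants. Only 1 of the 7 was below WT in each, with list medians of 0.12 in gyf1 and 0.03 in gyf2 and 0 calls. The drop from the single mutants was not particular to the epidermal list, whose median was −0.21 against each. The 7 root markers had medians of −0.22 against gyf1 (2 called lower) and −0.21 against gyf2 (0 called, all 7 negative). For non-additivity the root median was −0.41 with 1 called lower, and the epidermal median was −0.29. The part of the epidermal or root markers in the levels of the regulators was not tested.

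**Figure D3:**
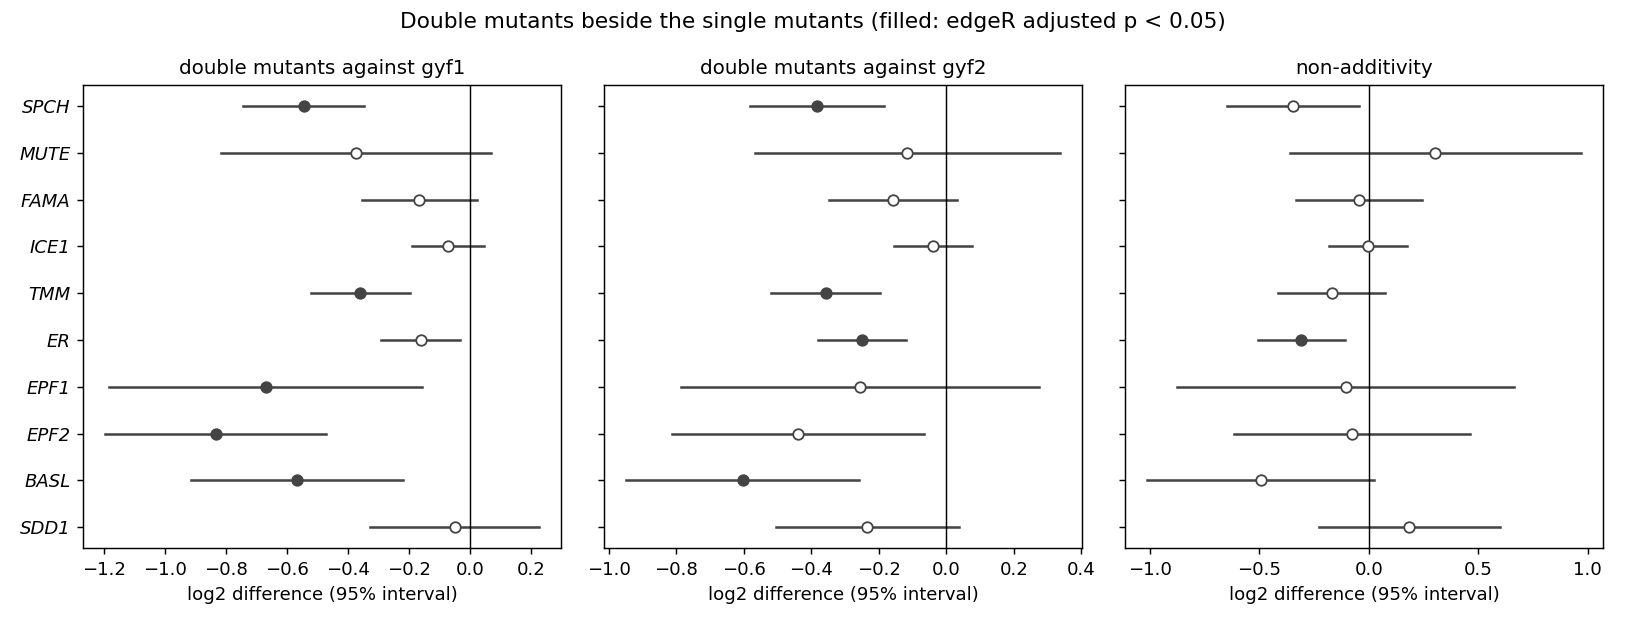
Log2 difference (x axes, with 95% interval) of the mean of both double mutants against gyf1 (left) and against gyf2 (middle), and non-additivity of the 2 mutations (right), for the 10 regulators (y axis); filled points passed the edgeR test. SPCH, TMM and BASL are filled against both single mutants, and ER is the single filled point for non-additivity.

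Per length, the regulators spanned about an order of magnitude. In FPKM (fragments scaled to transcript length and library size), ICE1 was the highest in WT with 23.2 ± 0.866 (SD, n = 3 as for the others), followed by ER with 13.9 ± 0.922 and TMM with 13.2 ± 0.707, which overlapped. FAMA (7.11 ± 0.255), EPF2 (6.95 ± 1.10) and SPCH (6.92 ± 0.408) overlapped one another, as did SDD1 (4.45 ± 0.431), BASL (3.63 ± 0.587) and MUTE (3.41 ± 0.439) in turn. EPF1 was lowest with 2.52 ± 0.360. The order ICE1, ER and TMM held in all 15 libraries. EPF1 was last in every library except gyf1 replicate 2 and gyf1 gyf2-1 replicate 1, where MUTE was. EPF2 moved most in rank: it was next to FAMA and SPCH in the WT libraries and next to last in gyf1 gyf2-2 replicate 3. By mean FPKM, EPF2 was at 5.44 ± 1.08 in gyf1 and 4.12 ± 0.214 in gyf2, with 3.22 ± 0.519 in gyf1 gyf2-1 and 2.86 ± 0.663 in gyf1 gyf2-2. By CPM, the double mutants were the lowest genotypes for every regulator except MUTE, for which gyf2 was between the lines, and WT was the highest for every regulator except ER.

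Over the 15 libraries, the profiles nearest to that of SPCH among 17737 genes (Euclidean distance of centred log2 CPM) belonged to PnsL3, MRL7, AS1, FADA and AT1G64680, at distances of 0.39 to 0.42. Their log2 fold changes were −0.48 to −0.32 in gyf1 gyf2-1 and −0.65 to −0.46 in gyf1 gyf2-2, against −0.20 to 0.05 in gyf1 and gyf2. AS1 encodes a MYB factor of leaf development, and PnsL3, MRL7 and FADA act in the chloroplast. Nearest to ICE1 were AT5G26360, AT1G54520, AT1G31910, SCY1 and ABCI8, at 0.16 to 0.18, with log2 fold changes of −0.14 to −0.05 in the double mutants. Among the regulators themselves ER and ICE1 were closest (0.40), and SPCH was closest to TMM (0.49).

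Around these regulators, 31 further genes of stomatal signalling and division were followed, of which 29 passed the filter (MKK7 and CYCD7;1 did not). In gyf1 gyf2-1, 8 of the 29 rose and 1 fell (14.2% of all genes rose and 11.7% fell). In gyf1 gyf2-2, 7 rose and 4 fell (15.1% and 12.6% of all genes). With upper-quartile scaling 7 rose and 3 fell in gyf1 gyf2-1, and 7 rose and 6 fell in gyf1 gyf2-2. In gyf2, MKK9, MPK3 and CRSP rose and none fell (1.99% of all genes rose), and in gyf1 MKK9 rose (0.405%). Without the 4 libraries that stood apart, 30 of the 31 passed the filter. Of these, 2 rose in gyf2, 8 rose and 3 fell in gyf1 gyf2-1, and 8 rose and 4 fell in gyf1 gyf2-2. The median log2 fold change of the 29 was 0.06 in gyf1 gyf2-1 and 0.00 in gyf1 gyf2-2.

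CRSP, a secreted protease known to cleave the EPF2 precursor, averaged 10.0 ± 0.629 CPM in gyf1 and 10.9 ± 0.345 in gyf2, with 21.8 ± 1.69 in gyf1 gyf2-1 and 26.1 ± 1.76 in gyf1 gyf2-2, against 7.92 ± 1.03 in WT. It rose by 1.46 in gyf1 gyf2-1 (SE 0.11, edgeR adjusted p = 4.06e-11) and by 1.71 in gyf1 gyf2-2 (SE 0.11, adjusted p = 7.72e-13). In gyf2 it rose by 0.46 (SE 0.11, adjusted p = 0.0200), a call lost without WT replicate 3, gyf2 replicate 2 or gyf2 replicate 3 (0.37 to 0.53 over all replicates left out, adjusted p up to 0.138).

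The MAP kinase kinase MKK9 averaged 34.9 ± 2.37 CPM in gyf1 and 57.4 ± 5.58 in gyf2, with 62.9 ± 6.15 in gyf1 gyf2-1 and 61.7 ± 8.17 in gyf1 gyf2-2, against 25.5 ± 1.00 in WT. Its log2 fold changes were 0.46 in gyf1 (SE 0.10, edgeR adjusted p = 0.0199), 1.17 in gyf2, then 1.30 in gyf1 gyf2-1 and 1.28 in gyf1 gyf2-2, the last 3 with adjusted p of 8.98e-10 or less. The call in gyf1 was kept only without gyf1 replicate 3, and lost without any other of its 6 libraries (0.41 to 0.51, adjusted p up to 0.136). The MAP kinase MPK3, which acts with MPK6 at the end of the cascade that limits SPCH and also in immunity, averaged 91.1 ± 0.962 CPM in gyf1 and 114.7 ± 5.84 in gyf2, with 141.9 ± 3.27 in gyf1 gyf2-1 and 160.5 ± 5.28 in gyf1 gyf2-2, against 84.4 ± 4.54 in WT. It rose by 0.44 in gyf2 (adjusted p = 1.92e-05), 0.75 in gyf1 gyf2-1 (3.12e-10) and 0.93 in gyf1 gyf2-2 (2.78e-12). In the mean of the double mutants against gyf2, MPK3 was higher by 0.39 (SE 0.05, adjusted p = 4.04e-06), while MKK9 differed by 0.12 (95% interval −0.04 to 0.28, adjusted p = 0.314).

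Of the other genes that passed in both lines, MKK4, a MAP kinase kinase of the same cascade, rose by 0.32 in gyf1 gyf2-1 (edgeR adjusted p = 0.0185) and 0.42 in gyf1 gyf2-2 (0.00200). Its call in gyf1 gyf2-1 was lost without WT replicate 3 or gyf1 gyf2-1 replicate 2 (adjusted p up to 0.0719). BIN2, a GSK3-like kinase of brassinosteroid signalling, rose by 0.31 in gyf1 gyf2-1 (0.000517) and 0.32 in gyf1 gyf2-2 (0.000275). The co-receptor BAK1 rose by 0.34 in gyf1 gyf2-1 (0.000919) and 0.35 in gyf1 gyf2-2 (0.000572), and its relative SERK4 by 0.51 in gyf1 gyf2-1 (4.96e-05) and 0.71 in gyf1 gyf2-2 (1.83e-07). SERK4 has a close paralog beside it, SERK5, so the split of reads between them is uncertain. FLP, a MYB factor that stops the last division, fell by 0.44 in gyf1 gyf2-1 (0.0128) and 0.37 in gyf1 gyf2-2 (0.0315). In gyf1 gyf2-1 it lost the call without WT replicate 2 or its own replicate 2 or 3 (changes as small as −0.32, adjusted p up to 0.104). In gyf1 gyf2-2 it lost the call without WT replicate 2 or its own replicate 1 or 3 (as small as −0.25, up to 0.205).

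A further 4 genes of the list, named here after their values were seen, passed in 1 line alone. The MAP kinase kinase kinase YDA rose by 0.33 in gyf1 gyf2-1 (edgeR adjusted p = 0.00427), with 0.21 in gyf1 gyf2-2 (0.0634). STOMAGEN, the peptide of the mesophyll that favours stomata, fell by 0.65 in gyf1 gyf2-2 (0.00254), with −0.41 in gyf1 gyf2-1 (0.0541). SCRM2, the close relative of ICE1, fell by 0.27 in gyf1 gyf2-2 (0.0145), with −0.15 in gyf1 gyf2-1 (0.198). ERL2, a receptor kinase related to ER, fell by 0.48 in gyf1 gyf2-2 (0.00758), with −0.22 in gyf1 gyf2-1 (0.225). SCRM2 lost its call without WT replicate 2 or gyf1 gyf2-2 replicate 1 (adjusted p up to 0.0769), and ERL2 without WT replicate 3 (−0.37, 0.0600). Between the lines themselves edgeR called 0 of the 29, with 4 at an unadjusted p below 0.05.

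Markers of the tissues around the lineage passed unevenly, and those named here were named after their values were seen. Their counts stand against 14.2% of all genes higher and 11.7% lower in gyf1 gyf2-1, and 15.1% higher and 12.6% lower in gyf1 gyf2-2. Of 10 guard cell markers, 1 rose in gyf1 gyf2-1 (KAT2, 0.28, edgeR adjusted p = 0.0462) and 1 fell in gyf1 gyf2-2 (MYB60, −0.42, adjusted p = 0.00392), with list medians of 0.06 in gyf1 gyf2-1 and −0.10 in gyf1 gyf2-2. Their summed level, most of it TGG1, was 918 to 993 CPM in gyf1 gyf2-1 and 854 to 905 in gyf1 gyf2-2, against 867 to 1035 in WT. Of 7 epidermal markers 0 passed in gyf1 gyf2-1 (0 at an unadjusted p below 0.05), and 2 fell in gyf1 gyf2-2 (FDH and PDF2). Their sum was 871 to 936 CPM in gyf1 gyf2-1 and 762 to 852 in gyf1 gyf2-2, against 828 to 1010 in WT. Of 8 markers of dividing or meristem tissue, 3 fell (AN3, ANT and KNOLLE) and 1 rose (STM) in gyf1 gyf2-1, and 2 fell (AN3 and GRF5) in gyf1 gyf2-2. In gyf1 gyf2-2, 5 of the 8 had negative changes, and the others reached 0.40 with 0 called higher. The sum of the 8 was 112 to 125 CPM in gyf1 gyf2-1, below all WT libraries, and 113 to 142 in gyf1 gyf2-2, against 129 to 142 in WT. In gyf1, where 0 regulators passed, the sum was 116 to 126 CPM, also below all WT libraries, and it was 128 to 136 in gyf2. All 8 of these markers had negative changes in gyf1, with a list median of −0.20 and 0 calls, and the median in gyf2 was −0.07. The list medians were −0.25 in gyf1 gyf2-1 and −0.14 in gyf1 gyf2-2, and those of the regulators −0.50 in gyf1 gyf2-1 and −0.63 in gyf1 gyf2-2.

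Of these calls, those of AN3 in gyf1 gyf2-1 and MYB60 in gyf1 gyf2-2 were kept with every library left out in turn. AN3, a growth coactivator of young leaves, fell by 0.62 in gyf1 gyf2-1 (edgeR adjusted p = 0.00217) and 0.43 in gyf1 gyf2-2 (0.0235). Root markers had 0 calls of 7 in each line (0 at an unadjusted p below 0.05 in gyf1 gyf2-1 and 1 in gyf1 gyf2-2). Their changes were negative for 5 of 7 in gyf1 gyf2-1 (median −0.03) and for all 7 in gyf1 gyf2-2 (median −0.19). The epidermal median in gyf1 gyf2-2 was also −0.19. Of 4 vascular markers, 2 rose in gyf1 gyf2-1 (SUC2 and IRX3) and 1 in gyf1 gyf2-2 (SUC2), and of 4 mesophyll markers RBCS1A rose in both. Vascular changes were negative for 2 of the 4 in gyf1 gyf2-1 (list median 0.07) and 1 in gyf1 gyf2-2 (0.23). Mesophyll changes were negative for 2 of the 4 in each line, with 0 called lower. These reached −0.37 in gyf1 gyf2-1 (list median 0.02) and −0.36 in gyf1 gyf2-2 (0.00). Whether a change in the share of dividing, epidermal or root tissue has a part in the lower levels of the regulators was not tested.

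**Figure D4:**
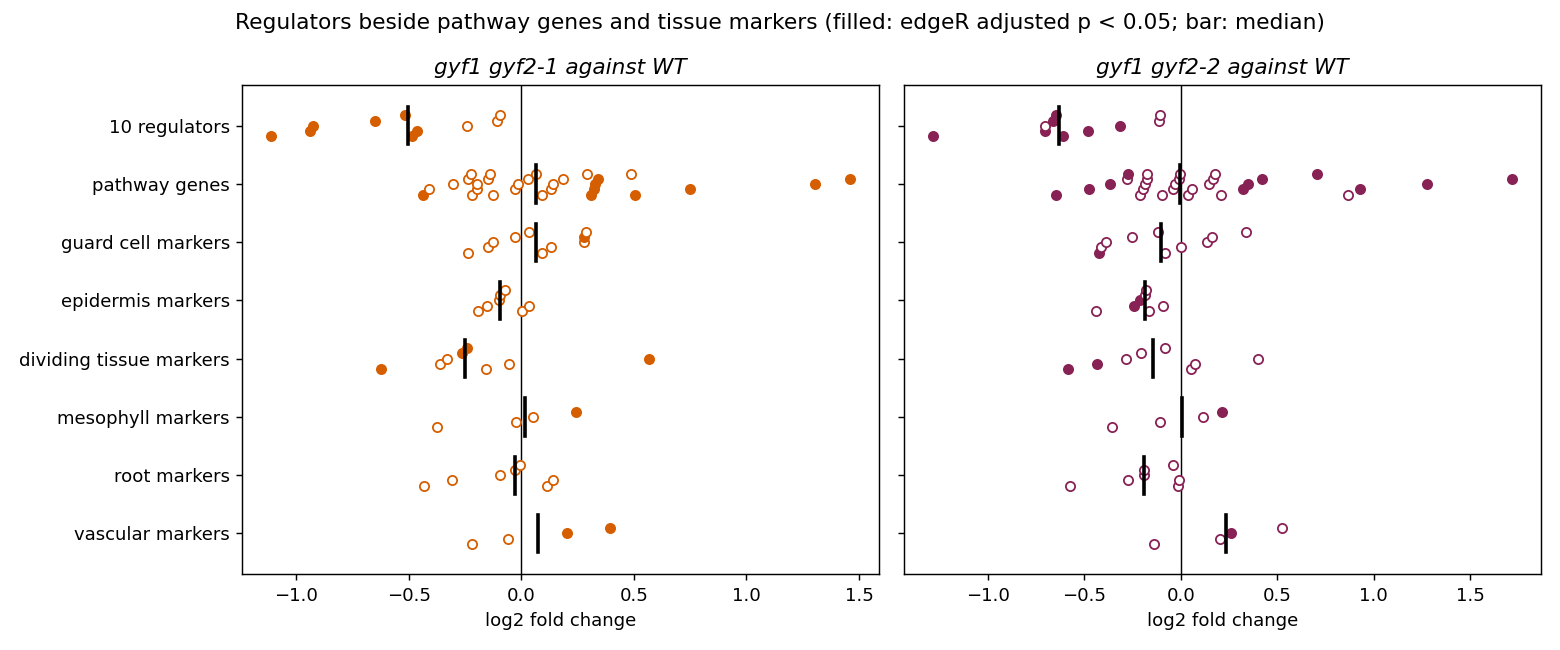
Log2 fold change against WT (x axes) in gyf1 gyf2-1 (left) and gyf1 gyf2-2 (right) for the 10 regulators, 29 further pathway genes and 6 lists of tissue markers (y axis); points are genes, filled where edgeR passed, and bars are medians. The regulators have medians of −0.50 (gyf1 gyf2-1) and −0.63 (gyf1 gyf2-2), and the pathway genes spread to both sides of 0.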

How the data were processed

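RNA from whole seedlings of 5 genotypes was sequenced as strand-specific mRNA libraries, 3 per genotype. The authors deposited raw counts and FPKM. Reads were processed with HISAT2 2.0.4 and HTSeq 0.6.1p1 on TAIR10, per the submitters' processing notes. How strand was handled in counting is not given in the sources. The library factor implied by the deposited FPKM values was 0.974 to 1.03 times the count total. No regulator overlaps another gene of the table.

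Counts were analysed in R 4.3.3 with edgeR 4.0.16: filterByExpr left 20721 of 32833 genes, library sizes were scaled by TMM, and a robust quasi-likelihood model of the 5 genotype means used all 15 libraries (biological coefficient of variation 7.94%). F tests were adjusted by Benjamini-Hochberg within each of 8 comparisons and called below 0.05. The SE is the absolute log2 fold change divided by the square root of F, and intervals are 95%. Within a genotype, library pairs differed beyond counting noise (chi-square per gene 3.04 to 9.53). Alternatives were DESeq2 1.42.0, limma 3.58.1 (voom, and trend on log2 of FPKM plus 0.1), other scalings and filters, a replicate block, fits to the groups compared only, and left-out libraries. The scripts were tested on simulated counts.

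The 10 regulators are always named. Of 31 further pathway genes those called in both double mutants are named, and the 5 profiles nearest to SPCH and to the regulator with the highest FPKM. The regulators, lists and markers were chosen with earlier results of these data known.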

Additional observations from a re-analysis of the deposited data

Results flagged for a closer look

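ER was the 1 regulator that passed the test of the double mutants against the sum of the single mutants, at −0.309 on the log2 scale (SE 0.10, edgeR adjusted p = 0.0498). The estimates for SPCH (−0.35) and BASL (−0.49) were further from 0 and did not pass. What drew attention was the test of the difference itself: ER was 0.06 in gyf1 and 0.15 in gyf2, against WT, and −0.09 in gyf1 gyf2-1 and −0.11 in gyf1 gyf2-2. Every double mutant library had 55.1 CPM or less, against 59.3 CPM or more in the gyf2 libraries. The adjusted p ranged from 0.0251 to 0.136 over the alternatives that keep all or set aside 4 libraries, and from 0.0512 to 0.169 for the 12 single libraries whose removal ended the call.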

How the results depend on the processing

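With the 4 libraries that stood apart left out, a choice made after seeing the data, the regulators passing were 0 in gyf2, 0 for non-additivity and 4 in gyf1 gyf2-1, and SPCH in gyf1 (0.0136), BASL in gyf1 (0.0384) and BASL in gyf2 (0.0597) changed sign without being called in any setting. The non-additivity count was also 0 in limma-voom and on FPKM, and so was the count of pathway genes in gyf1. With 1 library left out in turn, the regulators passing were 0 in gyf1, 0 to 1 in gyf2, 4 to 6 in gyf1 gyf2-1, 4 to 5 in gyf1 gyf2-2, 0 between the lines, 3 to 5 against gyf1, 3 to 4 against gyf2 and 0 to 1 for non-additivity. Pathway genes were 0 to 1, 2 to 3, 7 to 11 and 9 to 13 in gyf1, gyf2, gyf1 gyf2-1 and then gyf1 gyf2-2. SPCH in gyf1 ran from −0.0848 to 0.0417, BASL in gyf1 from −0.29 to 0.0344 and BASL in gyf2 from −0.20 to 0.0693. MUTE in gyf1 gyf2-2 missed the threshold with no filter on low counts (adjusted p = 0.0516), and SDD1 in gyf1 gyf2-1 on FPKM (0.0512). Genes called in all were 175 in gyf1 by DESeq2 against 108 by edgeR, and between the lines 118 without the 4 libraries against 48. Upper-quartile scaling gave a share of higher genes among those called of 43.2% instead of 56.0% against gyf1 and 44.0% instead of 57.9% against gyf2. The cause of these changes was not tested. Replicate numbers were not used as pairs in the main fit. Deviations of same-numbered libraries of different genotypes had correlations of −0.07 to 0.19 (median 0.03), over 0.1 in 5 of 30 pairs. The median was −0.02 for libraries with different numbers, and whether a weak shared effect of the replicate number is present was not tested. A replicate block gave 0 regulators in gyf1, 1 in gyf2, 7 in each double mutant, 0 between the lines, 5 against gyf1 (ER gained, −0.16, adjusted p = 0.0399, and EPF1 lost, −0.68, adjusted p = 0.05001), 4 against gyf2 and 1 for non-additivity, and 192 genes in all in gyf1. EPF1 and MUTE, with 13 to 76 counts per library, are limited by depth.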

Other observations

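Among the further pathway genes, 11 of 29 passed with both double mutants averaged and set against gyf1 (25.5% of all genes passed), and 10 of 29 with gyf2 (21% of all genes). CRSP, BAK1, SERK4, MPK3 and BIN2 were higher and ERL2, a receptor kinase related to ER, was lower in both of these comparisons. ERL2 was −0.39 against gyf1 (SE 0.11, edgeR adjusted p = 0.0114) and −0.41 against gyf2 (SE 0.11, adjusted p = 0.00933). CRSP was 1.25 against gyf1 (SE 0.10, adjusted p = 5.79e-11) and 1.12 against gyf2 (SE 0.09, adjusted p = 1.12e-09). Against gyf1 the kinases MKK4 (0.44), MKK5 (0.22), MKK9 (0.84) and YDA (0.20) were higher as well, and SOL1 was lower (−0.27). Against gyf2, MPK6 was higher (0.18), and SCRM2 (−0.25), STOMAGEN (−0.41) and CYCA2;3 (−0.33) were lower. Non-additivity was called for 3 of the 29, against 7.2% of all genes: SERK4 (0.48, adjusted p = 0.00778), CRSP (0.79, adjusted p = 0.000969) and MPK3 (0.28, adjusted p = 0.0340). These genes were named after their values were seen.

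Guard cell markers did not move as a group in the mean of the double mutants. KAT1, a potassium channel, was higher (0.36 against gyf1 and 0.33 against gyf2). MYB60, a guard cell transcription factor, was lower (−0.32 against gyf1 and −0.29 against gyf2). The other 8 of the 10 passed in neither comparison, while 25.5% of all genes passed against gyf1 and 21% against gyf2. KAT1 and MYB60 were named after their values were seen.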
